A study of Mus musculus with 6 samples.

Results

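Antioxidant enzyme genes encode the proteins that remove superoxide, hydrogen peroxide, lipid peroxides and reactive quinones. The 10 genes described here are Gpx1, Gpx3, Gpx4, Sod1, Sod2, Prdx1, Prdx2, Cat, Hmox1 and Nqo1, chosen by name. Each matched 1 gene identifier, and all 10 were among the 15108 genes tested, out of 54309 gene identifiers in the table. RNA came from the dorsal root ganglia (DRG), which house the cell bodies of sensory neurons, of levels L4 to L6 in male C57bl/6 mice aged 8 to 10 weeks. Of 6 libraries, 3 came from mice given AAV-Leptin-GFP, an adeno-associated virus that carries leptin together with GFP, and 3 from mice given AAV-GFP, the same kind of virus without leptin. In both groups the virus was injected into both sciatic nerves 4 weeks ahead of a dorsal column axotomy, a cut through the spinal tract that holds the central branches of sensory axons, and both were sampled 24 hours after it. All libraries are therefore from injured mice, and no uninjured group enters any comparison. Dissociated ganglia were enriched for neurons on an albumin gradient. The sources used here do not name the viral promoter or say whether a library holds 1 animal or a pool. The p-values therefore cover only the library-to-library spread, which may be partly technical.

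Superoxide, which leaks from mitochondrial respiration, is turned into hydrogen peroxide by superoxide dismutases. Peroxide is then removed by catalase in peroxisomes, by glutathione peroxidases that draw on glutathione, and by peroxiredoxins that draw on thioredoxin. The transcription factor NRF2, held back by KEAP1 until oxidants modify it, raises many of these genes, with Hmox1 and Nqo1 among its classic targets. Sensory neurons carry long axons with many mitochondria, a source of superoxide.

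All 10 genes had lower mean levels with AAV-Leptin-GFP, by small amounts (50.1% of all tested genes lay below 0), and 1 of them passed the test over all genes (1.61% of all tested genes passed in either direction). Gpx1, the cytosolic glutathione peroxidase, fell to 302 ± 10.7 TPM with AAV-Leptin-GFP, against 354 ± 8.60 TPM with AAV-GFP (SD, n = 3 each; limma adjusted p = 0.0481). TPM is a relative abundance that corrects for transcript length, and each library sums to 1000000. The 10 log2 fold changes, AAV-Leptin-GFP minus AAV-GFP on the log2(TPM + 1) scale, ran from -0.35 to -0.10 with a median of -0.14, while the median of all tested genes was -0.00016. A gene was called at a Benjamini-Hochberg adjusted p under 0.05, and 0.0662% of all tested genes were called lower and 1.54% higher. At an unadjusted limma p under 0.05, 5 of the 10 genes were lower (8.19% of all tested genes) and 0 higher (11.3% of all). These 5, Gpx1, Gpx4, Sod1, Prdx1 and Prdx2, all averaged 100 TPM or more and had transcripts shorter than 1500 nt. At that p 29.8% of all tested genes at 100 TPM or more were lower, and 47.8% of those also shorter than 1500 nt. Both limits were chosen after the values were seen. In bulk RNA of this kind, fewer cells of a type and less RNA per cell cannot be told apart.

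The delivered gene Lep was listed at 0.751, 0.547 and 3.56 TPM in the AAV-Leptin-GFP libraries and at 0 in the 3 AAV-GFP libraries. The summed level of 13 sensory neuron markers was 23576 to 24269 TPM with AAV-Leptin-GFP and 23977 to 25394 TPM with AAV-GFP, and each of them averaged at least 1 TPM. The satellite glia marker Apoe averaged 6229 TPM with AAV-Leptin-GFP and 7164 TPM with AAV-GFP, above each of the 13 neuron markers. Over all genes 233 were called higher and 10 lower, and once GC content and transcript length were corrected for, the split was 412 and 292. AAV-Leptin-GFP replicate 3 stood apart in 8 erythroid markers, such as haemoglobins, with a summed level of 1729.5 TPM, against 241 and 375 TPM in the other AAV-Leptin-GFP libraries and 171 to 257 TPM with AAV-GFP.

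Glutathione peroxidases of this set carry selenocysteine, an amino acid read from a UGA codon that would otherwise end the protein. The stretch around that codon in the most abundant coding transcript of each gene is shown because these genes share the codon. Gpx1, the only member that was called, is among them. Sequences are from GENCODE M21 on GRCm38, written as DNA from 5′ to 3′ with 13 bases on either side, and the capitals mark the selenocysteine codon.
Gpx1, codon at chr9:108339451-108339453, plus strand: tgtcgcgtctctcTGAggcaccacgatcc
Gpx3, codon at chr11:54907256-54907258, plus strand: cgtagccagctacTGAggtctgacagacc
Gpx4, codon at chr10:80054737-80054739, plus strand: cgtggcctcgcaaTGAggcaaaactgacg
In all 3 genes the codon is followed directly by a pair of g. The transcripts annotated with this codon held 46.7%, 38.5% and 37.2% of the Gpx1 signal with AAV-Leptin-GFP and 47.5%, 40.5% and 36.4% with AAV-GFP, so the ranges of the groups overlap. Nearly all of the rest of the Gpx1 signal lies on 2 shorter coding transcripts for which the annotation marks no such codon. For Gpx3 the share was 100% in each library, and for Gpx4 it was at least 99.25%.

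Gpx1 (ENSMUSG00000063856, chromosome 9, 108338903 to 108340343 on GRCm38, plus strand), which reduces hydrogen peroxide in the cytosol and mitochondria, stood at 290.3, 311 and 305 TPM with AAV-Leptin-GFP, and at 354, 345.5 and 363 TPM with AAV-GFP (replicates 1, 2 and 3 of each group). Every AAV-Leptin-GFP library was below every AAV-GFP library, and the mean was 85.3% of that with AAV-GFP. The log2 fold change was -0.23 (SE 0.04, limma 95% interval -0.33 to -0.13), the difference exceeded the spread in either group, and by p Gpx1 ranked 236 among the 15108 genes. The call is close to its threshold: it was lost when any 1 of the 6 libraries was left out, where the fold change stayed between -0.25 and -0.20 with adjusted p from 0.0752 to 0.169.

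Gpx4 (ENSMUSG00000075706, chromosome 10, 80047166 to 80056439, plus strand) reduces lipid peroxides inside membranes and protects cells from ferroptosis, a form of death driven by lipid peroxidation. It stood at 655, 589 and 649.7 TPM with AAV-Leptin-GFP and at 678, 714 and 706 TPM with AAV-GFP. The groups did not overlap, but the change did not pass the test over all genes (log2 fold change -0.15, SE 0.05, 95% interval -0.27 to -0.03, limma adjusted p = 0.168). Under quantile normalization its value was -0.08.

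Gpx3 (ENSMUSG00000018339, chromosome 11, 54902453 to 54910377, plus strand), which encodes the secreted glutathione peroxidase found in plasma, had the lowest fold change and the widest spread of the set. It stood at 63.2, 59.9 and 45.4 TPM with AAV-Leptin-GFP and at 89.0, 63.85 and 62.9 TPM with AAV-GFP. The highest AAV-Leptin-GFP library lies between the AAV-GFP libraries, so the groups overlap, and the value of -0.35 (SE 0.17, 95% interval -0.74 to 0.04, limma adjusted p = 0.307) rests on the high AAV-GFP replicate 1 and the low AAV-Leptin-GFP replicate 3. Without AAV-GFP replicate 1 it was -0.19, and without AAV-Leptin-GFP replicate 3 it was -0.20.

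**Figure D1:**
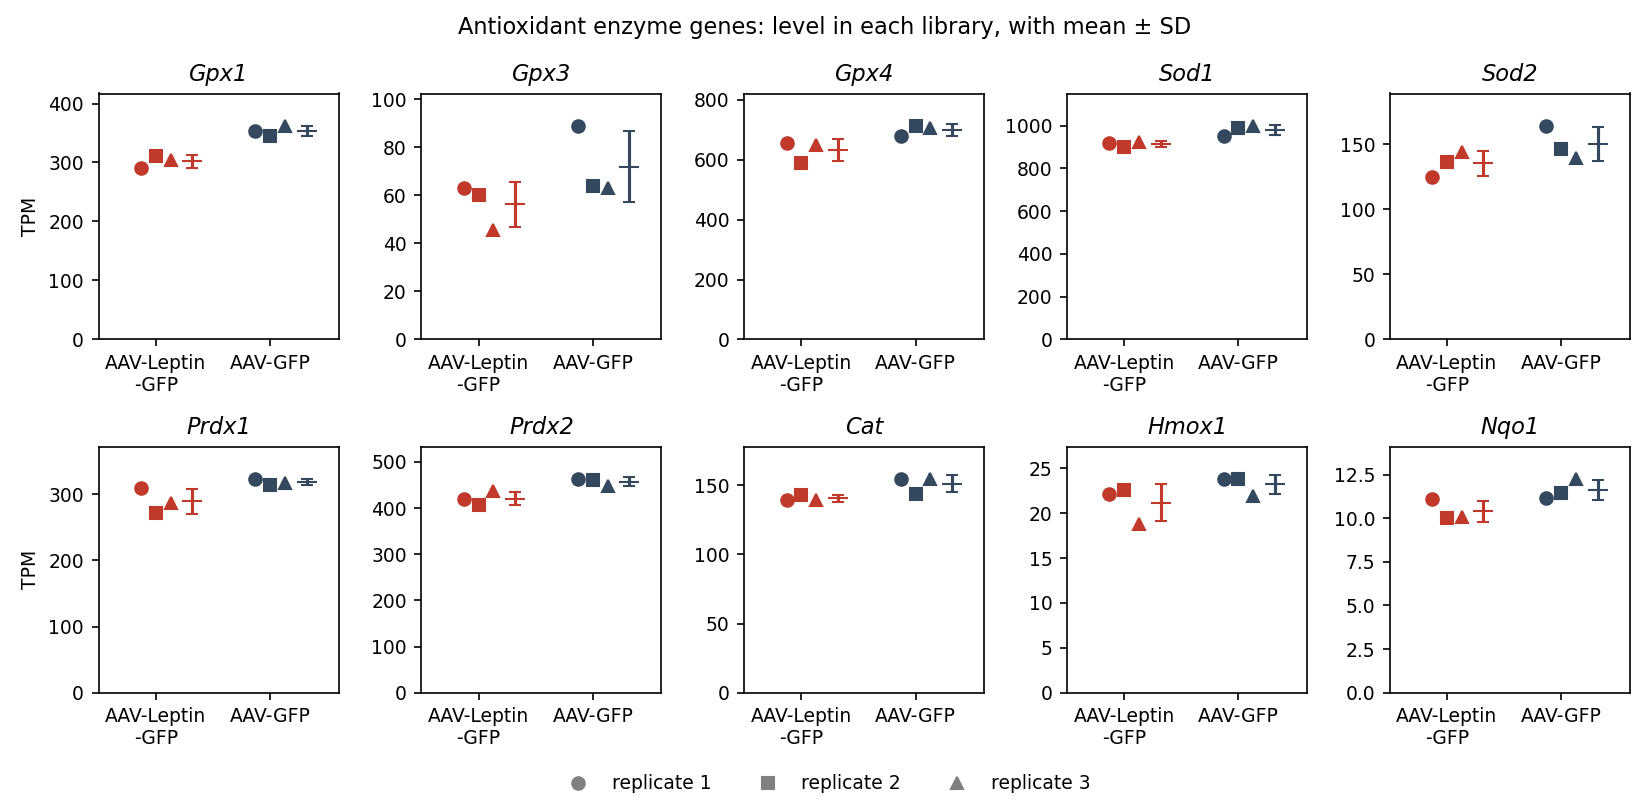
Level of each antioxidant enzyme gene in TPM (vertical axes, each starting at 0), in the 3 AAV-Leptin-GFP libraries (red) and the 3 AAV-GFP libraries (dark blue), with symbols for the replicates and a bar for the mean ± SD of the group. Points of the groups do not overlap in 7 genes and overlap in Gpx3, Sod2 and Hmox1, and for Gpx1 the AAV-Leptin-GFP libraries lie at 290.3 to 311 TPM, all under the AAV-GFP libraries.

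The superoxide dismutases differ in place: Sod1 encodes the copper and zinc enzyme of the cytosol, and Sod2 the manganese enzyme of mitochondria. Sod1 (ENSMUSG00000022982, chromosome 16, 90220754 to 90226329, plus strand) was the most abundant of the 10 genes, with 919.6, 899.6 and 923 TPM with AAV-Leptin-GFP and 954, 988 and 1000.5 TPM with AAV-GFP. Its groups did not overlap, and its log2 fold change was -0.10 (SE 0.03, 95% interval -0.18 to -0.02, limma adjusted p = 0.162). The mean with AAV-Leptin-GFP was 93.2% of that with AAV-GFP, and the fold change was -0.02 under quantile normalization and -0.07 with mitochondrial genes removed. Sod2 (ENSMUSG00000006818, chromosome 17, 13006846 to 13040063, plus strand) stood at 125, 137 and 144 TPM with AAV-Leptin-GFP and at 164.5, 146 and 139.7 TPM with AAV-GFP. AAV-Leptin-GFP replicate 3 exceeds AAV-GFP replicate 3, so the groups overlap (-0.15, SE 0.08, limma adjusted p = 0.344). Without AAV-GFP replicate 1 the value was -0.08, and without AAV-Leptin-GFP replicate 1 it was -0.09. Counted over protein-coding transcripts only, the sign of Sod2 turned, to 0.001.

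Peroxiredoxins are abundant thiol enzymes that reduce hydrogen peroxide and are reset by thioredoxin. Prdx1 (ENSMUSG00000028691, chromosome 4, 116685544 to 116700822, plus strand) stood at 309, 272 and 287 TPM with AAV-Leptin-GFP and at 323, 315 and 317 TPM with AAV-GFP. Prdx2 (ENSMUSG00000005161, chromosome 8, 84969587 to 84974834, plus strand) stood at 419.9, 406 and 436 TPM with AAV-Leptin-GFP and at 463.5, 462 and 447 TPM with AAV-GFP. Neither gene had overlapping groups and neither passed over all genes, with log2 fold changes of -0.14 for Prdx1 (SE 0.05, 95% interval -0.26 to -0.02, limma adjusted p = 0.197) and -0.12 for Prdx2 (SE 0.04, 95% interval -0.21 to -0.03, adjusted p = 0.161). Under quantile normalization the values were -0.08 for Prdx1 and -0.05 for Prdx2. The Prdx2 span overlaps the genes Junb and Rnaseh2a, and that of Sod1 overlaps Scaf4, all on the opposite strand; the libraries are stranded, but the sources do not say whether quantification used the strand. Junb, an AP-1 subunit gene, averaged 132 TPM with AAV-Leptin-GFP and 80.4 TPM with AAV-GFP and was called higher (log2 fold change 0.71, limma adjusted p = 0.0268). Its part in the Prdx2 value was not tested. Named pseudogene copies of Prdx1 and Prdx2 were listed at 0. The more abundant of the 2 copies of Gpx4, Gpx4-ps2, averaged 0.872 TPM with AAV-Leptin-GFP and 0.688 TPM with AAV-GFP.

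Cat (ENSMUSG00000027187, chromosome 2, 103453849 to 103485160, minus strand) encodes catalase, which splits hydrogen peroxide in peroxisomes. It stood at 139, 143 and 139 TPM with AAV-Leptin-GFP and at 155, 144 and 155 TPM with AAV-GFP. The groups did not overlap, by a margin of less than 1 TPM, and the log2 fold change was -0.10 (SE 0.05, 95% interval -0.21 to 0.003, limma adjusted p = 0.267), or -0.06 under quantile normalization.

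Hmox1 and Nqo1, named above among the classic NRF2 targets, were the least abundant members of the set and showed no rise. Hmox1 (ENSMUSG00000005413, chromosome 8, 75093621 to 75100589, plus strand), the haem oxygenase that breaks haem down to biliverdin, iron and carbon monoxide, stood at 22.1, 22.6 and 18.8 TPM with AAV-Leptin-GFP and at 23.8, 23.8 and 21.9 TPM with AAV-GFP. The groups overlap (-0.13, SE 0.09, 95% interval -0.33 to 0.07, limma adjusted p = 0.460), and without AAV-Leptin-GFP replicate 3 the value was -0.05. Nqo1 (ENSMUSG00000003849, chromosome 8, 107388225 to 107403206, minus strand), a quinone reductase, stood at 11.1, 10.0 and 10.1 TPM with AAV-Leptin-GFP and at 11.1, 11.4 and 12.3 TPM with AAV-GFP. The AAV-Leptin-GFP libraries lie just under the AAV-GFP ones (-0.15, SE 0.08, 95% interval -0.33 to 0.04, limma adjusted p = 0.378). Under quantile normalization Nqo1 moved the other way from the abundant members, to a lower value of -0.23 (adjusted p = 0.177). The upper ends of the 95% intervals in the main test were 0.07 for Hmox1 and 0.04 for Nqo1 on the log2 scale. NRF2 activity was not tested.

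**Figure D2:**
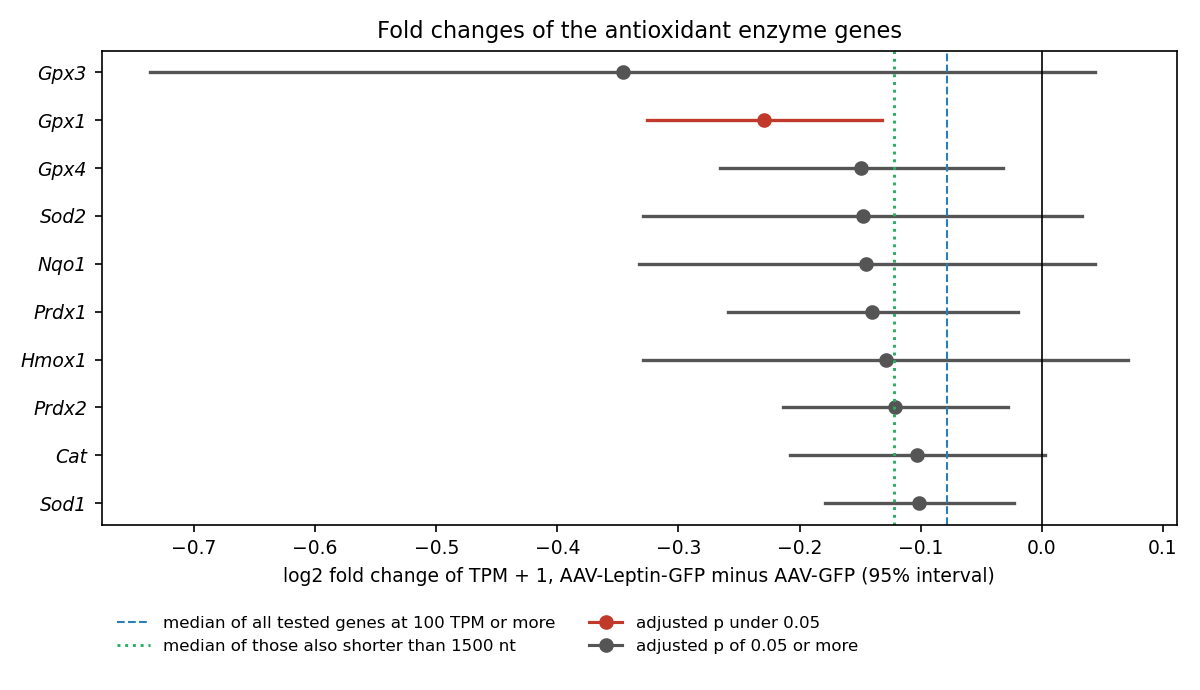
Log2 fold change of each antioxidant enzyme gene on the log2(TPM + 1) scale, AAV-Leptin-GFP minus AAV-GFP (horizontal axis), with its limma 95% interval as a line, n = 3 libraries a group; red marks an adjusted p under 0.05. All 10 points lie below 0, from -0.35 for Gpx3 to -0.10 for Sod1, and the intervals of 5 genes exclude 0; the dashed and dotted vertical lines at -0.08 and -0.12 are medians of abundant genes described in the text.

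The groups did not overlap, with AAV-Leptin-GFP lower, for 7 of the 10 genes, and this held for 11.9% of all tested genes. In each of the 10 genes the lowest of the 6 libraries was an AAV-Leptin-GFP library and the highest an AAV-GFP library. The lowest was AAV-Leptin-GFP replicate 2 in 5 genes, replicate 3 in 3 and replicate 1 in 2, and the highest was AAV-GFP replicate 1 in 5 genes, replicate 3 in 4 and replicate 2 in 1, so no single library held all of the extremes. How many of all tested genes have this pattern of extremes was not counted, so the pattern is not shown to be particular to these genes. Of tested genes at 100 TPM or more, 77.9% lay below 0. Summed over the 10 genes, the level was 2955, 2851 and 2958 TPM with AAV-Leptin-GFP and 3216, 3213 and 3225 TPM with AAV-GFP. The SD of this sum was 60.9 TPM with AAV-Leptin-GFP and 6.10 TPM with AAV-GFP, and the sums do not overlap.

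Other abundant genes also had lower values with AAV-Leptin-GFP. Among the 1962 tested genes with a mean of 100 TPM or more, a level chosen after the values were seen, 77.9% lay below 0, the median log2 fold change was -0.08, and the groups did not overlap with AAV-Leptin-GFP lower for 36.6%. Of the antioxidant genes 7 are in that range, and 6 of the 7 did not overlap. Among the 691 abundant genes with transcripts shorter than 1500 nt, 90.6% lay below 0 and the median was -0.12. That length was likewise chosen after the values were seen. The groups did not overlap downward for 52.2% of these genes, and 5 antioxidant genes, Gpx1, Gpx4, Sod1, Prdx1 and Prdx2, are of that kind. Whether the antioxidant genes differ from such genes was not tested. The 13146 tested genes under 100 TPM had a median of 0.02, and Gpx3, Hmox1 and Nqo1, all in that range, stood at -0.35, -0.13 and -0.15. With GC content and transcript length corrected for, the median of the 10 genes was -0.15 and that of all tested genes -0.05, and under quantile normalization they were -0.10 and -0.04.

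**Figure D3:**
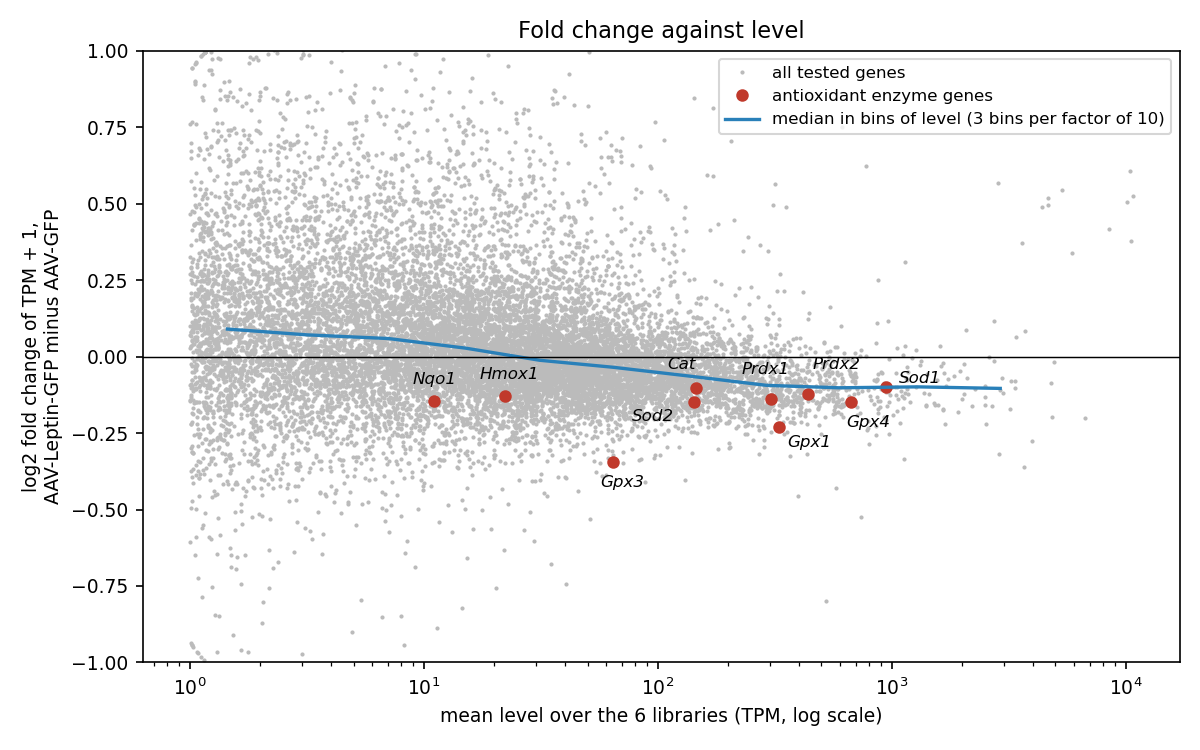
Log2 fold change on the log2(TPM + 1) scale, AAV-Leptin-GFP minus AAV-GFP (vertical axis), against the mean level over the 6 libraries in TPM (horizontal axis, log scale), for 15108 tested genes (grey), of which 332 lie beyond the vertical limits, and for the antioxidant enzyme genes (red). The blue line, the median in bins of level that hold at least 20 genes, is above 0 at low levels and below 0 at high levels, and the antioxidant genes lie on or under it.

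The order of the 10 mean levels was the same in both groups. Per length, as TPM gives it, Sod1 led with 914 ± 12.6 TPM with AAV-Leptin-GFP and 981 ± 24.1 TPM with AAV-GFP, and ranked 109 among all tested genes. Gpx4 followed with 631 ± 36.9 TPM with AAV-Leptin-GFP and 699.5 ± 19.1 TPM with AAV-GFP, then Prdx2 with 421 ± 15.0 TPM with AAV-Leptin-GFP and 457.5 ± 9.004 TPM with AAV-GFP. Gpx1 and Prdx1 came next, and their libraries overlapped with AAV-Leptin-GFP (302 ± 10.7 TPM for Gpx1, 289 ± 18.4 TPM for Prdx1) but not with AAV-GFP (354 ± 8.60 TPM for Gpx1, 318 ± 4.51 TPM for Prdx1). Cat and Sod2 could not be ordered beyond their spread, at 141 ± 2.35 and 135 ± 9.76 TPM with AAV-Leptin-GFP and at 151 ± 6.17 and 150.2 ± 12.8 TPM with AAV-GFP. Gpx3 averaged 56.2 ± 9.48 TPM with AAV-Leptin-GFP and 71.9 ± 14.8 TPM with AAV-GFP. Hmox1 followed with 21.2 ± 2.07 TPM with AAV-Leptin-GFP and 23.2 ± 1.09 TPM with AAV-GFP. Nqo1 closed the order with 10.4 ± 0.597 TPM with AAV-Leptin-GFP and 11.6 ± 0.583 TPM with AAV-GFP, so these 3 genes were ordered beyond their spread. The SD was at most 9.76% of the mean in 9 of the genes in both groups, and for Gpx3 it was 16.9% with AAV-Leptin-GFP and 20.6% with AAV-GFP.

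At the level of single transcripts, the main coding transcripts of several genes had lower values with AAV-Leptin-GFP while minor transcripts that keep an intron had higher ones, and none passed the test over 33615 transcripts. Of 43 listed transcripts of the 10 genes, 27 had a mean of at least 1 TPM and were tested. Called at an adjusted p under 0.05 were 0 higher and 0 lower, where 0.107% and 0.0238% of all tested transcripts were called, and at an unadjusted limma p under 0.05 there were 4 higher (12.3% of all) and 5 lower (6.01% of all). The 20 coding transcripts had a median log2 fold change of -0.12, with 16 below 0 (48.6% of all tested transcripts lay below 0). Each tested coding transcript of Gpx1, the gene that was called, overlapped between the groups. ENSMUST00000082429, ENSMUST00000193987 and ENSMUST00000191997 of Gpx1 stood at -0.25, -0.30 and -0.13 (limma adjusted p = 0.293, 0.44 and 0.842). The 5 retained-intron transcripts had a median of 1.00, with 1 below 0, but the filter shaped this value. ENSMUST00000154095 of Gpx4 and ENSMUST00000127215 of Prdx2 averaged 2.73 and 4.74 TPM with AAV-Leptin-GFP, and 0.909 and 0.879 TPM with AAV-GFP. Both passed the filter of 1 TPM only through the AAV-Leptin-GFP libraries, so their direction was partly set by the filter. Retained-intron transcripts took 3.53% ± 0.260 of all TPM with AAV-Leptin-GFP and 2.29% ± 0.2003 with AAV-GFP, and within the 10 genes together 1.32%, 1.57% and 2.25% with AAV-Leptin-GFP and 2.0%, 1.46% and 1.01% with AAV-GFP, so within these genes the groups overlap.

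The coding transcript with the smallest p was ENSMUST00000005292 of Prdx2, at 229, 225 and 230.0 TPM with AAV-Leptin-GFP and at 266, 261 and 261.5 TPM with AAV-GFP (-0.21, limma adjusted p = 0.0564). It held 54.2% of the Prdx2 signal with AAV-Leptin-GFP and 57.5% with AAV-GFP. A coding transcript of Prdx1, ENSMUST00000135573, had values just as tight, at 94.8, 94.3 and 95.4 TPM with AAV-Leptin-GFP and at 107, 108 and 108 TPM with AAV-GFP (-0.18, SE 0.04, adjusted p = 0.0696). In both transcripts the groups do not overlap, but these transcripts were picked by their values, and neither passed the test over all transcripts. How many of all tested transcripts have groups that do not overlap was not counted.

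In Sod1 and Prdx2 the main coding transcript lay below 0 and a tested retained-intron transcript above it. Gpx4 had the same signs, but its retained-intron transcript passed the filter only through the AAV-Leptin-GFP libraries, so it is no further example. The main Gpx4 transcript ENSMUST00000105372 stood at 606, 541 and 598 TPM with AAV-Leptin-GFP and at 648, 691 and 664 TPM with AAV-GFP (-0.20, limma adjusted p = 0.11). Its share of the gene was 92.1% with AAV-Leptin-GFP and 95.5% with AAV-GFP. The other coding transcripts ENSMUST00000183037 and ENSMUST00000097227, which also carry an annotated selenocysteine codon, averaged 36.5 and 9.63 TPM with AAV-Leptin-GFP and 25.2 and 5.21 TPM with AAV-GFP (0.56 and 0.80, adjusted p = 0.295 and 0.271). The retained-intron transcript ENSMUST00000154095 of Gpx4 stood at 3.01, 3.25 and 1.94 TPM with AAV-Leptin-GFP and at 0.952, 1.05 and 0.729 TPM with AAV-GFP (0.95, adjusted p = 0.0931). That of Prdx2, ENSMUST00000143402, stood at 3.71, 3.43 and 6.01 TPM with AAV-Leptin-GFP and at 1.79, 2.19 and 1.07 TPM with AAV-GFP (1.00, adjusted p = 0.114). For Sod1 the retained-intron transcript ENSMUST00000232505 stood at 4.02, 4.82 and 3.62 TPM with AAV-Leptin-GFP and at 2.04, 0.511 and 0.906 TPM with AAV-GFP (1.32, SE 0.29, adjusted p = 0.0818), and it was called when AAV-GFP replicate 1, its highest AAV-GFP library, was left out. It held at most 0.536% of the Sod1 signal in any library.

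Hmox1 and Sod2 are the genes whose summed value depends most on which transcripts are counted. The coding transcript of Hmox1, ENSMUST00000005548, stood at 20.8, 21.4 and 18.6 TPM with AAV-Leptin-GFP and at 23.8, 23.6 and 21.9 TPM with AAV-GFP, without overlap (log2 fold change -0.18, limma adjusted p = 0.291). The intron-retaining transcript of Hmox1 took 4.13% of the gene with AAV-Leptin-GFP and 0.292% with AAV-GFP and was under the filter. Of Sod2 the long coding transcript ENSMUST00000007012, at 54.4, 53.5 and 52.6 TPM with AAV-Leptin-GFP and 50.9, 54.6 and 54.5 TPM with AAV-GFP, had a fold change of 0.005. Among the Sod2 transcripts the widest spread was that of the retained-intron transcript ENSMUST00000233333, with 23.2, 28.3 and 37.7 TPM with AAV-Leptin-GFP and 54.4, 42.0 and 28.4 TPM with AAV-GFP. Reads that fit several transcripts of a gene are divided by estimation, so the split within a gene is less certain than its sum.

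**Figure D4:**
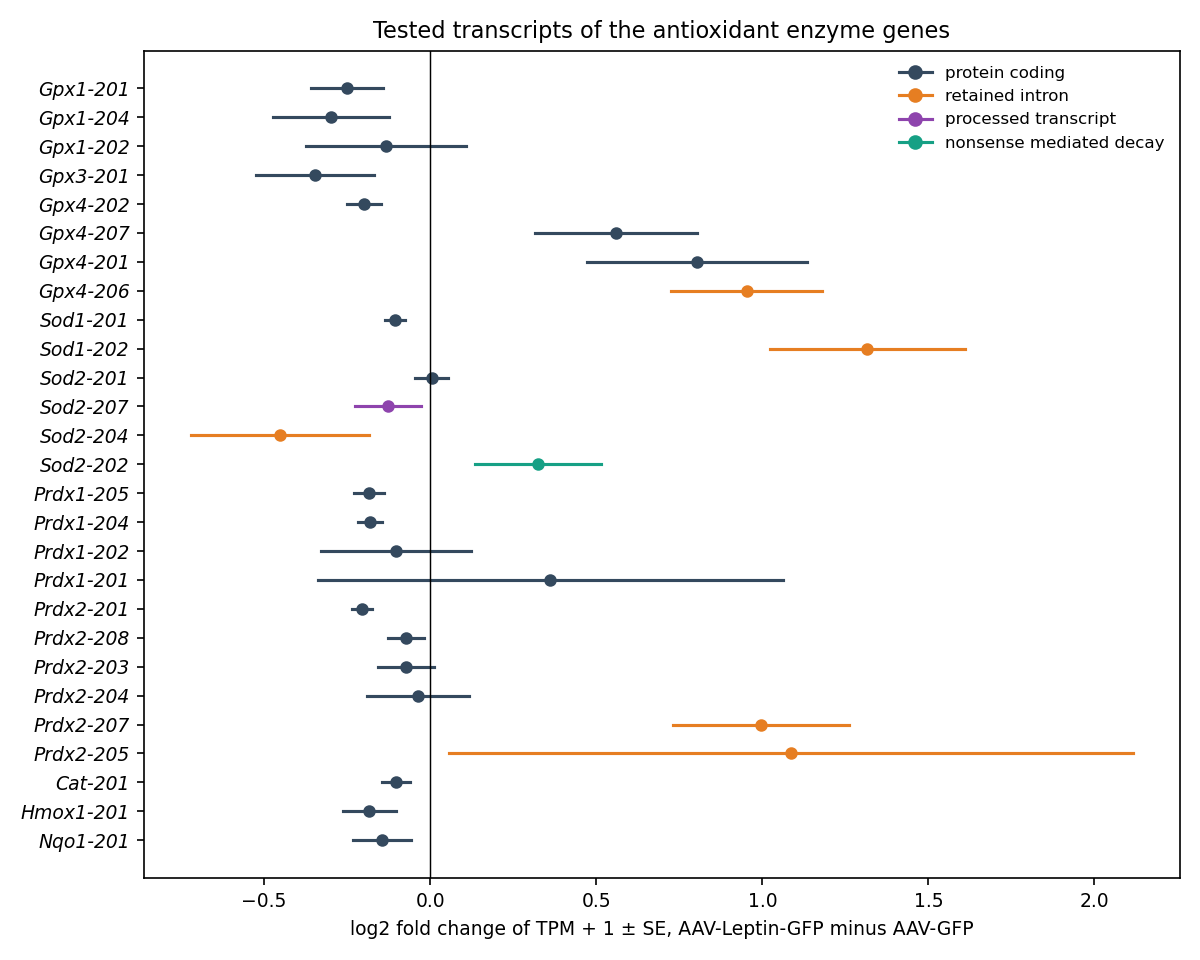
Log2 fold change ± SE on the log2(TPM + 1) scale, AAV-Leptin-GFP minus AAV-GFP (horizontal axis), of the 27 tested transcripts of the antioxidant enzyme genes, named as in GENCODE M21 and coloured by transcript class, n = 3 libraries a group. Coding transcripts (dark blue) lie mostly just below 0, and 4 of 5 retained-intron transcripts (orange) lie above 0 with wider errors. Among the latter, Gpx4-206 and Prdx2-205 averaged under 1 TPM with AAV-GFP and passed the filter only through the AAV-Leptin-GFP libraries.

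The stretch before the start of a gene was searched for the antioxidant response element, the site through which NRF2 acts, and for the site of AP-1, the factor made of Fos and Jun proteins. Windows were 300 bases, 250 before to 50 after each RefSeq start on GRCm38, and 9 of the 10 genes had at least 1 window (12 windows in all); Hmox1 had none. The element was searched as TGACNNNGC and AP-1 as TGANTCA, each on both strands. The windows of Gpx1, the gene that was called, and of Prdx1 and Sod1, which held matches, are shown. Capitals mark the matches, and lower case is the rest.
Gpx1, chr9:108338830-108339129, plus strand: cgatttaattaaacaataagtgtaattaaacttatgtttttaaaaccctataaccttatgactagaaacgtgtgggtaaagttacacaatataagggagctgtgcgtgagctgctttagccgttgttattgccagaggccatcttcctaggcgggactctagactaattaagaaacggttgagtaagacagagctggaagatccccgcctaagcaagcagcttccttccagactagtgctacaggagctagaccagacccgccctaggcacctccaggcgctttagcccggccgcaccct
Prdx1, chr4:116685349-116685648, plus strand: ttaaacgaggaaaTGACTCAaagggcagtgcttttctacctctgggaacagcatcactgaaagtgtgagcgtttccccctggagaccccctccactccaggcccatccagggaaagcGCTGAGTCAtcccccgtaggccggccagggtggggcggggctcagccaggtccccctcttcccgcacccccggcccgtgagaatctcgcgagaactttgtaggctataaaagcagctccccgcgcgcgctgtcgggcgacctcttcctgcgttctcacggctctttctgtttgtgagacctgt
Sod1, chr16:90220512-90220811, plus strand: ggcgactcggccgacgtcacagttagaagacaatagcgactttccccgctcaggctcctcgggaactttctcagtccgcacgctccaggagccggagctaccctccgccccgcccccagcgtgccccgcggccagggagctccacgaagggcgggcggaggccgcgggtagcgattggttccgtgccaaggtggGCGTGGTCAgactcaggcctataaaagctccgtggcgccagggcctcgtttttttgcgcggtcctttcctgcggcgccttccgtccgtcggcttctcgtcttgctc
The antioxidant response element matched in 2 of the 12 windows, Prdx1 and Sod1, and in 12.4% of all 32851 windows. AP-1 matched in the Prdx1 window alone among the 12 windows, at 2 places, and in 7.8% of all windows. The inner AP-1 match of Prdx1 overlaps its response element match, so the capitals there mark both. The Gpx1 window held neither. A match describes the letters only, and these windows leave out more distant elements. The GC box GGGCGG, on either strand, was found in 11 of the 12 windows, all but 1 of the 4 of Gpx4, and in 35.7% of all windows.

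The wider antioxidant system was described with 13 lists of 200 genes, of which 184 were tested, and none of them passed over all genes. With GC content and length corrected for, Akr1a1, Gstm5, Idh1, Maoa, Selenow, Sqstm1, Taldo1 and Tkt were called lower and Ppox higher. Over all 15017 genes it covered, that correction called 292 lower and 412 higher. By limma without that correction 0 of the 184 were called higher and 0 lower. At an unadjusted p under 0.05, 34 were lower (18.5%, against 8.19% of all tested genes) and 11 higher (5.98%, against 11.3%). In all, 123 of the 184 (66.8%, against 50.1% of all tested genes) lay below 0, with a median log2 fold change of -0.05. The groups did not overlap downward for 26.6% of them (11.9% of all tested genes) and upward for 7.07% (13.3% of all). Among all tested genes at 100 TPM or more, 36.6% did not overlap downward.

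Most tested genes of the systems that supply reducing power to these enzymes lay below 0, and none passed the main test over all genes. The glutathione lists were more divided than the thioredoxin list. Txn1, the thioredoxin that resets peroxiredoxins, stood at 791, 700.1 and 690.1 TPM with AAV-Leptin-GFP and at 875.5, 843 and 841.5 TPM with AAV-GFP (-0.23, limma adjusted p = 0.0881). Of the 16 tested genes of the thioredoxin and peroxiredoxin list 14 lay below 0 (median -0.06). The thioredoxin reductase genes Txnrd1 and Txnrd2 stood at -0.01 each and Txnrd3 at -0.15 (limma adjusted p = 0.42), all chosen after their values were seen. Only Txnrd3 among them had no overlap, at 10.4 to 12.22 TPM with AAV-Leptin-GFP and 12.23 to 13.8 TPM with AAV-GFP. Prdx6 stood at 135.5 ± 1.94 TPM with AAV-Leptin-GFP and 153 ± 7.95 TPM with AAV-GFP. Among 18 tested genes of glutathione supply 11 lay below 0 and 7 above (median -0.05). Gsr, which regenerates glutathione, stood at 56.8 ± 1.43 TPM with AAV-Leptin-GFP and 63.1 ± 1.07 TPM with AAV-GFP (-0.15, adjusted p = 0.142), and Chac2, which degrades it, at 36.45 ± 1.336 TPM with AAV-Leptin-GFP and 44.3 ± 2.95 TPM with AAV-GFP (-0.27, adjusted p = 0.0889). Glutathione S-transferases, which attach glutathione to reactive compounds, had 13 of 21 tested genes below 0 (median -0.04), with Gstm5 at -0.20 (adjusted p = 0.0771) and Gstp1 at -0.21 (adjusted p = 0.128).

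Among other selenoproteins, Selenow, a small selenoprotein of muscle and brain, stood at 989, 921 and 937 TPM with AAV-Leptin-GFP and at 1101, 1053 and 1092.5 TPM with AAV-GFP (-0.19, limma adjusted p = 0.0641). Selenok, a selenoprotein of the endoplasmic reticulum, stood at 237, 232 and 222 TPM with AAV-Leptin-GFP and at 256, 284.5 and 295 TPM with AAV-GFP (-0.27, adjusted p = 0.0715). In both the groups stand apart without overlap. Over the list of selenocysteine synthesis and other selenoproteins 16 of 22 tested genes lay below 0, with a median of -0.05, and 0 were called. In the small list of superoxide dismutase partners 5 of 6 lay below 0 (median -0.06), with the copper chaperone gene Atox1 at -0.13 (adjusted p = 0.265) and the copper importer gene Slc31a1 at -0.09 (adjusted p = 0.405).

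The regulators of NRF2 were divided, with 6 of 12 tested genes below 0 and 6 above (median -0.02). Mafg, a small Maf protein gene whose product pairs with NRF2, stood at 89.1, 99.7 and 79.6 TPM with AAV-Leptin-GFP and at 74.5, 61.0 and 69.3 TPM with AAV-GFP, without overlap (log2 fold change 0.38, limma adjusted p = 0.103). Sqstm1, which encodes the p62 protein that binds KEAP1, stood at 681 ± 8.57 TPM with AAV-Leptin-GFP and 734 ± 14.2 TPM with AAV-GFP (-0.11, adjusted p = 0.139). Of 21 other NRF2 targets tested 15 lay below 0 (median -0.07), with Idh1, a source of NADPH, at -0.19 (adjusted p = 0.0927) and the aldehyde oxidase gene Aox1 at 0.30 (adjusted p = 0.112). Idh1 was called lower under median-ratio scaling (-0.21) and with GC content and length corrected for (-0.22).

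Haem and iron genes, the setting of Hmox1, gave 15 of 21 below 0 (median -0.05). Ppox, an enzyme of haem synthesis, stood at 17.9, 15.8 and 13.2 TPM with AAV-Leptin-GFP and at 10.6, 7.35 and 9.68 TPM with AAV-GFP (0.71, limma adjusted p = 0.0710). Tfrc, the transferrin receptor that brings iron in, stood at 74.2, 96.5 and 84.7 TPM with AAV-Leptin-GFP and at 115, 105 and 100.1 TPM with AAV-GFP (-0.33, adjusted p = 0.133). Neither gene had overlapping groups. Peroxisome genes, the setting of Cat, gave 16 of 22 below 0 (median -0.05), with the transporter gene Abcd3 at -0.15 (adjusted p = 0.140). Quinone and carbonyl reductases, the relatives of Nqo1 in function, gave 11 of 12 below 0 and the lowest median of the lists, -0.11, with Akr1a1, an aldehyde reductase, at 666 ± 14.7 TPM with AAV-Leptin-GFP and 746 ± 9.74 TPM with AAV-GFP (-0.16, adjusted p = 0.0627) and the carbonyl reductase Cbr3 at -0.27 (adjusted p = 0.149).

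Genes that make superoxide, peroxide or nitric oxide gave 5 of 14 tested genes below 0 and 9 above (median 0.11). Xdh, xanthine dehydrogenase, stood at 2.82, 1.89 and 4.28 TPM with AAV-Leptin-GFP and at 1.78, 1.87 and 1.36 TPM with AAV-GFP (0.54, limma adjusted p = 0.258), and the monoamine oxidase gene Maoa at -0.19 (adjusted p = 0.118). Lipid peroxidation and ferroptosis genes, which share Tfrc with the iron list, gave 5 of 8 below 0 (median -0.08), with the ferredoxin gene Fdx1 at -0.17 (adjusted p = 0.127). Of the 3 metallothioneins, metal-binding proteins that also react with oxidants, 1 lay below 0 and 2 above. Mt1 stood at 213, 216 and 189 TPM with AAV-Leptin-GFP and at 183, 131 and 146 TPM with AAV-GFP (0.43, adjusted p = 0.111), while Mt3, the form of the nervous system, stood at 678 ± 6.56 TPM with AAV-Leptin-GFP and 719.5 ± 16.3 TPM with AAV-GFP (-0.09, adjusted p = 0.215). Without AAV-GFP replicate 1, Mt1 (0.57) and Mt2 (0.35) were called higher and Selenok (-0.33) lower.

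Cells other than neurons also express these enzymes, and their markers were measured beside them. The 8 satellite glia markers had a summed level of 7367 to 8099 TPM with AAV-Leptin-GFP and 8235.5 to 9399 TPM with AAV-GFP, and the 8 Schwann cell markers 847 to 925 TPM with AAV-Leptin-GFP and 962 to 996 TPM with AAV-GFP, so both sums were lower with AAV-Leptin-GFP without overlap. Most of the satellite glia sum is Apoe; without it the other 7 markers summed to 1505, 1595 and 1430 TPM with AAV-Leptin-GFP and 1967, 1580.5 and 1836 TPM with AAV-GFP, which overlap. Of the 8 satellite glia markers, Glul (0.14) and Cdh19 (0.20) had higher values with AAV-Leptin-GFP. Of these 16 genes 0 were called lower and Egr2, which is also an immediate early gene, was called higher. Macrophage markers, 12 in all, summed to 92.1 to 98.1 TPM with AAV-Leptin-GFP and 80.1 to 112 TPM with AAV-GFP, and the sums of neutrophil, T and B cell, endothelial and fibroblast markers overlapped between the groups as well. No listed marker of any type was at 0 in all 6 libraries. The part of these cells in the antioxidant values was not tested. Red blood cells are rich in Prdx2, Cat and Gpx1. Without AAV-Leptin-GFP replicate 3, the library with the most erythroid signal, the log2 fold changes were -0.147 for Prdx2, -0.096 for Cat and -0.236 for Gpx1. With it they were -0.121, -0.103 and -0.229. Over all fits without 1 library, Prdx2 ran from -0.147 to -0.096. Cat ran from -0.137 to -0.085 in those fits, and Gpx1 from -0.251 to -0.201. The part of red blood cells in these values was not tested.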

How the data were processed

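The authors deposited TPM values, 1 per Ensembl transcript and library, for 140789 transcripts in 6 libraries. The submitters' processing notes name Salmon 1.6.0, Trim Galore 0.6.6, DESeq2 1.34.0 and FastQC 0.11.9, without their roles, and the builds GRCm38 and mm10; per the labels' protocols, the libraries were stranded mRNA libraries. TPM keeps no read number, so depth is unknown and no counting intervals are given.

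Transcript TPM were summed by gene identifier (54309 genes). Genes averaging 1 TPM or more (15108) entered limma 3.58.1 (R 4.3.3) as log2(TPM + 1), with its trend option, no covariates and a two-sided test of AAV-Leptin-GFP minus AAV-GFP, and with Benjamini-Hochberg adjustment over all of them. Transcripts were tested alike. The pseudocount of 1 understates the change of low genes. Data were handled with pandas 2.3.3 and data.table (version 1.17.8), and plots drawn with matplotlib 3.10.9 in Python 3.11.15. The gene test was checked on simulated data with changes larger than those of the antioxidant genes. That check does not cover changes as small as theirs.

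Coordinates, transcript classes, lengths and GC content come from GENCODE M21 on GRCm38, matched by identifier for 97.4% of transcripts; the version suffix was the same for 37, so the authors used another release. Promoter windows come from RefSeq (GRCm38.p6). Named genes are the 10 members and, of each wider list, any called gene and the 2 with the smallest p; 1 gene that this names is not reported here. The members and lists were chosen with earlier results of these data known.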

Additional observations from a re-analysis of the deposited data

How the results depend on the processing

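The 10 log2 fold changes were recomputed under 17 alternatives each. All stayed below 0 except Sod2 with protein-coding transcripts only (0.001); the cause was not tested. Gpx1 lay between -0.26 and -0.16, with an unadjusted limma p of at most 0.00695 and adjusted p from 0.0393 to 0.169, and was called in 4 alternatives: a pseudocount of 0.1 TPM, a filter at 5 TPM, median-ratio size factors, and the GC content and length correction. The number of the 10 genes called lower, 1 as reported, was 0 with no filter, quantile normalization, mitochondrial genes removed, protein-coding transcripts only, no mean-variance trend, the replicate block with or without the correction, and in each fit without 1 library (0 to 0). None was called higher in any fit.

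Over all genes the counts higher and lower, 233 and 10 as reported, were 4 and 0 with no filter, 53 and 4 with protein-coding transcripts only, 35 and 0 without the trend, 412 and 292 with the GC content and length correction, 74 and 0 with the replicate block, and 145 and 26 with block and correction. Lower genes numbered 27 with a filter at 5 TPM, 3 with mitochondrial genes removed and 40 with median-ratio size factors. Without 1 library, 4 to 453 were higher and 0 to 13 lower. Of the wider antioxidant genes, 0 called as reported, the correction called 1 higher (Ppox) and 8 lower, median-ratio size factors 1 lower, and fits without 1 library 0 to 2 higher and 0 to 1 lower. Of the transcripts of the 10 genes, 0 to 1 were called higher without 1 library.

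The sample titles number the replicates without saying whether same-numbered libraries were paired. Deviations of same-numbered libraries from their group means correlated at 0.03, -0.07 and -0.02, and those of differently numbered libraries at -0.08 to 0.11. These values cannot tell whether same-numbered libraries were handled together. With the replicate block Gpx1 had an adjusted p of 0.0892. Depth is unknown, so what it limits cannot be given, and with 3 libraries a group the gene intervals are wide. Transcripts above 0 numbered 61474 to 64423 with AAV-Leptin-GFP and 55476 to 60572 with AAV-GFP. Genes at 1 TPM or more numbered 15151 to 15285 with AAV-Leptin-GFP and 14717 to 14851 with AAV-GFP. Both counts were higher with AAV-Leptin-GFP without overlap, and their part in the fold changes was not tested.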
